A study of Saccharomyces pastorianus with 12 samples.

Results

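The glucose sensing genes and the Mig/Nrg repressors are 10 genes: SNF3 and RGT2 (glucose sensors), MTH1 and STD1 (partners of the repressor Rgt1), RGT1, MIG1, MIG2, MIG3, NRG1 and NRG2 (zinc-finger or zinc-cluster repressors). They were followed in SpIB2 and SpIB1, a pair of lager yeast strains of the hybrid species Saccharomyces pastorianus. Every row of the count tables that carried a member's symbol, alone or with a copy number such as NRG2_1, was taken as a copy of that gene, which gave 21 gene copies of 10 symbols among 11312 copies listed. MIG2 and MIG3 had 1 copy each, 6 symbols had 2 copies, MTH1 had 3 and RGT1 had 4. Neither the parent species nor the position of a copy was known here, so copies are called by their number.

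In Saccharomyces cerevisiae, Snf3 and Rgt2 sit in the plasma membrane, resemble glucose transporters and report extracellular glucose to the nucleus, Snf3 with high and Rgt2 with low affinity. Their signal leads to degradation of Mth1 and Std1, which Rgt1 needs, together with the Tup1 and Cyc8 corepressor, to keep hexose transporter genes (HXT) silent. In the parallel pathway the kinase Snf1 opposes Mig1, which with its relatives Mig2 and Mig3 represses genes for other sugars and for respiration while glucose lasts, and Nrg1 and Nrg2 repress a partly shared set that includes SUC2 and FLO11. Wort holds glucose beside maltose and maltotriose, and in lager brewing glucose is usually used first.

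The 4 groups were SpIB2 on day 5, SpIB2 on day 2, SpIB1 on day 5 and SpIB1 on day 2, with 3 libraries each. Fermentation of a brewing wort ran for 5 days at 16 °C with either strain, and polyA RNA was sequenced from total RNA with an integrity number above 8. The study asked which genes go with a difference between the strains in their use of maltose and maltotriose. Each strain is a single strain, so a strain difference describes this pair. RNA came from whole cultures, so fewer cells with a transcript and less transcript per cell cannot be told apart. The labels do not state separate fermentations for the replicates, and all p-values therefore speak of the spread among these libraries alone, part of which may be technical.

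Library totals ran between 5133175 and 7922547 reads, so that 3 reads corresponded to between 0.379 and 0.584 CPM (read counts scaled to library size), and all 21 copies passed the filter on low counts. A pair of SpIB2 libraries stood apart from their groups. SpIB2 day 5 replicate 1 correlated at r = 0.923 and 0.915 with the other replicates (log2 CPM over copies), which correlated at 0.972 with each other. SpIB2 day 2 replicate 3 correlated at 0.897 and 0.906 with its replicates, whose own r was 0.952, and the SpIB1 pairs lay between 0.963 and 0.989. Among the members, SpIB2 day 5 replicate 1 was above both of its replicates in 15 of 21 copies, and SpIB2 day 2 replicate 3 in 13 of 21. The normalisation factor (TMM) of SpIB2 day 5 replicate 1 was also low, at 0.509 against 0.868 and 0.885 in its replicates and 1.24 to 1.35 in SpIB1 day 5. Results are therefore given with and without this pair of libraries. The part these libraries play was not tested beyond that. The pair was picked by its distance from its replicates in these same data. Leaving it out narrows the spread within SpIB2, so adjusted p-values without it may be too small.

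Differences were tested with edgeR's quasi-likelihood test over all genes, and calls were made at 0.05 after Benjamini-Hochberg adjustment. Between the strains on day 5, 8 of the 21 copies were higher in SpIB2 (38.1%) and 4 lower (19.0%), against 29.9% and 26.5% of all 10659 copies tested. On day 2, 3 copies were higher in SpIB2 and 3 lower (14.3% each), against 19.3% and 16.0%. Within SpIB2, 6 copies were higher on day 5 than on day 2 (28.6%) and 2 lower (9.52%), against 21.8% and 23.5%. Within SpIB1, no copy was higher and 2 were lower (9.52%), against 0.863% and 2.61%. At an unadjusted p under 0.05 edgeR had 1 copy higher in SpIB1, and DESeq2 and limma voom called none. The day effect differed between the strains for 3 copies, all in the direction of SpIB2 (14.3%), against 14.6% of all copies in that direction and 11.9% in the other. In the other direction 1 copy (STD1_1) was past an unadjusted p of 0.05 in edgeR, DESeq2 called 1 and limma voom none.

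The median log2 fold change of the 21 copies was 0.57 between the strains on day 5 (all copies 0.04), 0.11 on day 2 (all copies 0.04), 0.63 between the days in SpIB2 (all copies -0.10) and 0.00 between the days in SpIB1 (all copies 0.00). Leaving out SNF3_2, which had at most 2 reads in either SpIB1 group, the SpIB1 day median was -0.03 over 20 copies. Read against the shares of all copies, these counts give no result about the 21 copies as a group, and what follows concerns single genes and copies.

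With the reads of all copies summed, 2 of the 10 genes (NRG1 and NRG2) were higher in SpIB2 on day 5 and 1 (STD1) was lower, against 28.3% and 26.7% of the 6171 summed genes tested. On day 2 NRG1 was called higher in SpIB2 and none lower, against 14.9% and 13.0%, and none was lower at an unadjusted p under 0.05 in edgeR or by DESeq2 or limma voom. From day 2 to day 5, SNF3, MTH1 and MIG3 were higher and STD1 lower in SpIB2, against 22.2% and 24.4%. In SpIB1 NRG2 was lower and none was higher, against 2.98% and 0.891%. NRG2 was also the 1 gene whose day effect differed between the strains, against 15.8% of genes in its direction and 12.5% in the other. In that other direction 1 member (STD1) was past an unadjusted p of 0.05 in edgeR and called by DESeq2, and limma voom called none.

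**Figure D1:**
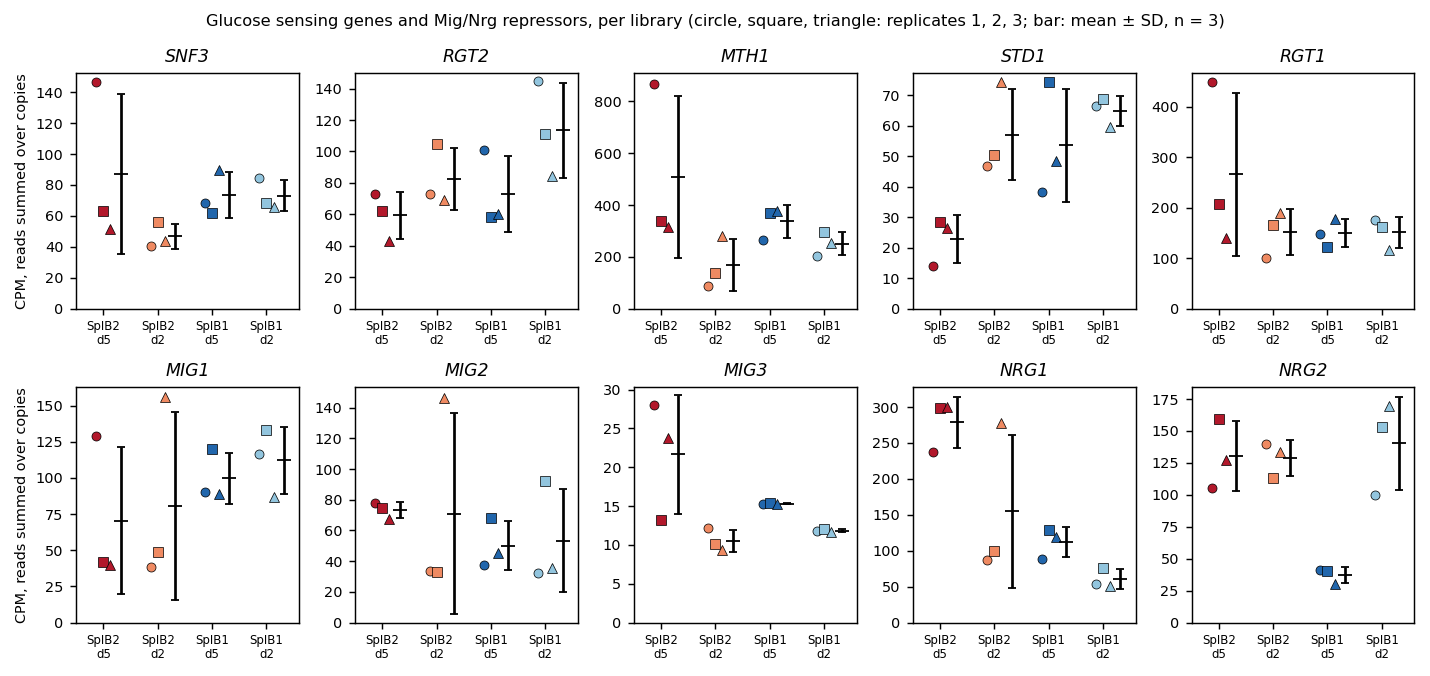
Level of each of the 10 genes in every library, in CPM after TMM normalisation with the reads of all copies summed (y axis, linear, from 0), by strain and day (x axis, d5 and d2 for days 5 and 2). Circles, squares and triangles are replicates 1, 2 and 3, and bars give the mean ± SD (n = 3). NRG2 is low in all 3 SpIB1 day 5 libraries (30.1 to 41.0 CPM) and STD1 in all 3 SpIB2 day 5 libraries (13.9 to 28.4 CPM). Single SpIB2 libraries lie far above their group for SNF3, MTH1, RGT1, MIG1, MIG2 and NRG1.

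Among the sensors, the SNF3 reads came from different copies in the 2 strains. SNF3_2 had 492 reads in SpIB2 on day 5 and 369 on day 2, but 2 reads over the 3 SpIB1 libraries on day 5 and 0 on day 2. On day 2 the level of SNF3_2 was at least 143.3-fold higher in SpIB2 than in SpIB1, taking 3 reads over the SpIB1 group as the limit that a count of 0 allows. On day 5 the ratio was 551.3 (exact 95% interval 151.8 to 4565, counting error only). Whether the SpIB1 genome holds this copy was not tested.

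SNF3_1 went the other way. It had 23.3, 31.6 and 20.8 CPM in SpIB2 day 2 libraries, against 83.3, 67.3 and 65.3 CPM in SpIB1 day 2 libraries. Every SpIB2 library was below every SpIB1 library, and the log2 fold change was -1.51 ± 0.32 (SE here and below; edgeR adjusted p = 0.00264), a call that held in all 15 alternative analyses. On day 5 SNF3_1 had 69.0, 34.6 and 29.5 CPM in SpIB2 and 66.6, 60.7 and 88.1 CPM in SpIB1. There replicate 1 of SpIB2 overlapped with SpIB1, and the difference of -0.70 ± 0.31 missed the threshold (edgeR adjusted p = 0.0677), while without SpIB2 day 5 replicate 1 it was -1.17 and passed (0.00185).

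With both copies summed, SNF3 passed between the strains on neither day with all libraries. It averaged 87.3 ± 51.8 CPM in SpIB2 day 5, 46.8 ± 8.11 in SpIB2 day 2, 73.3 ± 14.7 in SpIB1 day 5 and 73.1 ± 10.1 in SpIB1 day 2 (SD, n = 3 each). Neither strain contrast of the sum passed (edgeR adjusted p = 0.543 on day 5 and 0.157 on day 2). On day 2 the groups did not overlap, and the difference of -0.64 ± 0.33 was -0.58 (0.0445) without both libraries that stood apart and -0.64 (0.0379) when only the 6 libraries compared were fitted. The sum was called higher on day 5 in SpIB2, by 0.89 ± 0.33 (edgeR adjusted p = 0.0413). That call depended on single libraries and on the method. SNF3 had 146.7, 63.3 and 51.8 CPM in SpIB2 day 5 and 40.6, 56.0 and 43.9 CPM in SpIB2 day 2. Without SpIB2 day 5 replicate 1 the day effect in SpIB2 was 0.30 (edgeR adjusted p = 0.308), and it also missed without SpIB2 day 2 replicate 1 (0.116) or replicate 3 (0.0907). It missed under limma voom (limma adjusted p = 0.0758), with a replicate block (edgeR adjusted p = 0.0848) and with only the 6 libraries compared (0.108). SNF3_2 alone showed the same, with 1.15 ± 0.43 (edgeR adjusted p = 0.0464) and 0.32 (0.364) without SpIB2 day 5 replicate 1. It missed also without SpIB2 day 2 replicate 1 (0.127), 2 (0.071) or 3 (0.0776). The same held under limma voom (limma adjusted p = 0.0787), with a replicate block (edgeR adjusted p = 0.1265) and with only the 6 libraries compared (0.0811).

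RGT2, the low-affinity sensor, showed a strain difference in 1 of its copies. RGT2_1 had 36.8, 45.7 and 20.3 CPM in SpIB2 day 2, against 93.0, 74.7 and 53.7 CPM in SpIB1 day 2. The groups did not overlap, and RGT2_1 was lower in SpIB2 with a log2 fold change of -1.11 ± 0.33 (edgeR adjusted p = 0.0184). On day 5 RGT2_1 had 32.3, 26.6 and 22.2 CPM in SpIB2 and 67.4, 38.7 and 39.7 CPM in SpIB1, again without overlap, and was lower in SpIB2 (-0.85 ± 0.33, edgeR adjusted p = 0.0416).

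Both RGT2_1 calls lay near the threshold. The day 2 call ended without SpIB1 day 2 replicate 1 (edgeR adjusted p = 0.0867) or SpIB2 day 2 replicate 3 (0.0551), and the day 5 call without SpIB1 day 5 replicate 1 (0.166), SpIB2 day 5 replicate 2 (0.0886) or 3 (0.126). The day 5 call ended also with median-ratio size factors in place of TMM (0.0581) and under limma voom (limma adjusted p = 0.0509). With both libraries that stood apart left out, the RGT2_1 values were -0.83 on day 2 (0.0278) and -0.99 on day 5 (0.0107). RGT2_2 did not pass in any contrast, with 0.56 ± 0.32 on day 5 (0.147) and 0.30 ± 0.31 on day 2 (0.482), and passed on day 5 only without SpIB2 day 5 replicate 3 (0.0474), among the libraries left out singly. The summed RGT2 averaged 59.4 ± 15.1 CPM in SpIB2 day 5, 82.3 ± 19.6 in SpIB2 day 2, 73.2 ± 24.2 in SpIB1 day 5 and 113.5 ± 30.1 in SpIB1 day 2 (SD, n = 3 each), and none of its contrasts passed.

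Copies of MTH1, the first partner of Rgt1, differed between the strains in opposite directions. MTH1_2 had 53.6, 23.6 and 20.9 CPM in SpIB2 day 5, against 132.7, 217.4 and 225.4 CPM in SpIB1 day 5. On day 2 it had 9.20, 16.6 and 32.5 CPM in SpIB2 and 76.6, 130.9 and 136.5 CPM in SpIB1. The strains did not overlap on either day. MTH1_2 was lower in SpIB2, with -2.56 ± 0.48 on day 5 (edgeR adjusted p = 0.000497) and -2.56 ± 0.48 on day 2 (edgeR adjusted p = 0.00127), and both calls held in all 15 alternatives. When both libraries that stood apart were left out the differences were -3.11 on day 5 and -3.14 on day 2.

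The other MTH1 copies were higher in SpIB2 on day 5. MTH1_3 had 566.9, 205.9 and 190.2 CPM in SpIB2 day 5, against 85.7, 84.1 and 85.2 CPM in SpIB1 day 5. All 3 SpIB2 libraries were above all 3 SpIB1 libraries, and replicate 1 was the highest by far. The difference was 1.92 ± 0.48 (edgeR adjusted p = 0.00401), and 1.21 (0.000685) without both libraries that stood apart. MTH1_1 was higher in SpIB2 by 1.70 ± 0.45 on day 5 (edgeR adjusted p = 0.00563) and 1.02 (0.00376) without the same pair. On day 2 neither MTH1_1 (0.15 ± 0.44) nor MTH1_3 (0.10 ± 0.47) passed.

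Within SpIB2, MTH1_3 was higher on day 5 than on day 2. Its day 2 values were 39.0, 57.8 and 129.4 CPM, all below the 190.2 to 566.9 CPM of day 5, which gave a day effect of 2.09 ± 0.49 (edgeR adjusted p = 0.00415). With both libraries that stood apart left out the effect was 2.04 (0.00013), and no alternative ended the call. MTH1_1 was higher on day 5 in SpIB2 by 1.34 ± 0.45 (edgeR adjusted p = 0.0261). That call ended without SpIB2 day 2 replicate 1 (0.0954), SpIB2 day 2 replicate 2 (0.071) or SpIB2 day 5 replicate 1 (0.186), where the effect was 0.65. It ended also with only the 6 libraries compared (0.0859).

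The summed MTH1 had 868.9, 339.8 and 313.4 CPM in SpIB2 day 5 and 85.4, 138.3 and 278.5 CPM in SpIB2 day 2. The days did not overlap, the nearest values being 313.4 and 278.5 CPM, and the sum was higher on day 5 by 1.60 ± 0.46 (edgeR adjusted p = 0.0133). The call ended without SpIB2 day 2 replicate 1 (0.0516) or SpIB2 day 5 replicate 1 (0.0673, effect 0.96), and without both libraries that stood apart the effect was 1.55 (0.00136). With only the 6 libraries compared the call ended as well (0.0614). In SpIB1 MTH1 had 263.8, 369.7 and 377.3 CPM on day 5 and 204.8, 294.7 and 253.3 CPM on day 2. These overlapped, with 0.43 ± 0.45 (edgeR adjusted p = 0.671), and the day effects of the 2 strains did not differ past the threshold (difference 1.17 ± 0.64, 0.176). That difference passed without SpIB2 day 2 replicate 3 (1.75, 0.0427) and without both libraries that stood apart (1.10, 0.0403). Likewise without both, it passed for MTH1_1 (1.36, 0.0165, against 1.54 and 0.0796 with all) and MTH1_3 (1.74, 0.00336, against 1.81 and 0.0577). Between the strains the log2 fold change of the sum was 0.59 ± 0.45 on day 5 (edgeR adjusted p = 0.283) and -0.58 ± 0.45 on day 2 (0.347), and neither passed. Without both libraries these were -0.05 (0.873) and -1.15 (0.0045), so that MTH1 then passed as lower in SpIB2 on day 2.

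STD1, the second partner of Rgt1, fell in SpIB2. Summed over copies it had 13.9, 28.4 and 26.6 CPM in SpIB2 day 5, against 46.8, 50.3 and 74.2 CPM in SpIB2 day 2. The days did not overlap, and STD1 fell by 1.30 ± 0.31 on the log2 scale (edgeR adjusted p = 0.00446). Its SpIB1 levels were 38.2, 74.2 and 48.5 CPM on day 5 and 66.6, 68.8 and 59.4 CPM on day 2, which overlapped (-0.27 ± 0.29, edgeR adjusted p = 0.671). On day 5 all SpIB2 values were below all SpIB1 values, a difference of -1.21 ± 0.31 (edgeR adjusted p = 0.00462). Both calls held in all 15 alternatives, with -0.82 (0.0294) for the day effect and -0.97 (0.00514) for the strain difference without both libraries that stood apart.

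The decline was called in STD1_1. STD1_1 had 9.96, 14.7 and 18.3 CPM in SpIB2 day 5 and 35.9, 36.3 and 64.8 CPM in SpIB2 day 2. All day 5 values were below all day 2 values, and STD1_1 fell by 1.66 ± 0.34 (edgeR adjusted p = 0.00184). STD1_2 was at 4.81, 13.6 and 8.81 CPM in SpIB2 day 5 and 10.1, 13.1 and 7.54 CPM in SpIB2 day 2, overlapping groups with a day effect of -0.14 ± 0.36 (edgeR adjusted p = 0.772). Against SpIB1, STD1_1 was lower in SpIB2 on day 5 (-1.63 ± 0.34, edgeR adjusted p = 0.00102), and STD1_2 was higher in SpIB2 on day 2 (1.02 ± 0.36, 0.0417). The STD1_2 call ended when any of 5 of the 6 day 2 libraries was left out, SpIB2 day 2 replicate 3 being the exception, with adjusted p-values of 0.0826 and 0.139 without SpIB2 day 2 replicates 1 and 2 and 0.0619, 0.0699 and 0.166 without SpIB1 day 2 replicates 1, 2 and 3.

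The fall of STD1 in SpIB2 was not shown to differ from the day effect in SpIB1. The difference of the day effects was -1.03 ± 0.42 for the sum (edgeR adjusted p = 0.0815) and -1.26 ± 0.46 for STD1_1 (0.0545). STD1_1 passed without SpIB1 day 5 replicate 1 (-1.50, 0.0415), SpIB2 day 2 replicate 2 (-1.41, 0.0456) or SpIB2 day 5 replicate 3 (-1.48, 0.0405). Without both libraries that stood apart the differences were -0.75 (0.17) for STD1_1 and -0.57 (0.227) for the sum. In SpIB2 the partners of Rgt1 thus had day effects of opposite sign, MTH1 with 1.60 and STD1 with -1.30 on the log2 scale.

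RGT1, the zinc-cluster repressor of HXT genes, had no called difference in its sum. The summed RGT1 had 449.1, 207.6 and 140.9 CPM in SpIB2 day 5, against 148.0, 122.4 and 177.8 CPM in SpIB1 day 5. The groups overlapped, with 0.83 ± 0.39 (edgeR adjusted p = 0.0829), and without SpIB2 day 5 replicate 1 and the other library that stood apart the difference was 0.22 (0.503). Without SpIB2 day 5 replicate 3 it was 1.14 (0.0209). On day 2 RGT1 averaged 151.7 ± 46.2 CPM in SpIB2 and 151.1 ± 31.1 CPM in SpIB1 (SD, n = 3 each), a difference of 0.01 ± 0.38.

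Calls in single RGT1 copies depended on SpIB2 day 5 replicate 1. RGT1_4 had 168.6, 66.2 and 50.9 CPM in SpIB2 day 5, 40.4, 51.7 and 27.2 CPM in SpIB2 day 2, 45.7, 42.7 and 57.1 CPM in SpIB1 day 5 and 66.5, 54.7 and 56.1 CPM in SpIB1 day 2. Replicate 1 of SpIB2 day 5 was the highest of the 12 libraries, and on day 5 the strains overlapped. RGT1_4 was called higher in SpIB2 on day 5 (0.97 ± 0.38, edgeR adjusted p = 0.0435) and higher on day 5 in SpIB2 (1.25 ± 0.39, 0.0181), and without SpIB2 day 5 replicate 1 these were 0.27 (0.406) and 0.56 (0.11). The strain call ended also without SpIB1 day 5 replicate 1 (0.12), 2 (0.135) or 3 (0.0605), and the day call without SpIB2 day 2 replicate 3 (0.0621). Under limma voom (limma adjusted p = 0.08385) and with a replicate block (edgeR adjusted p = 0.0883) the strain call ended too. With only the 6 libraries compared, both the strain call (0.08725) and the day call (0.0615) ended.

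RGT1_3 was called higher in SpIB2 on day 5 at 1.28 ± 0.48 (edgeR adjusted p = 0.0346), with overlapping groups, and was 0.59 (0.264) without SpIB2 day 5 replicate 1. Its call ended also without SpIB1 day 5 replicate 1 (0.0901) or 2 (0.137), under limma voom (limma adjusted p = 0.0613) and with a replicate block (edgeR adjusted p = 0.06825). RGT1_1 and RGT1_2 passed in none of the 5 contrasts. RGT1_2 was the copy with the fewest reads, at 10.5 ± 2.94 CPM in SpIB2 day 5, 7.89 ± 3.35 in SpIB2 day 2, 7.41 ± 0.786 in SpIB1 day 5 and 5.09 ± 2.09 in SpIB1 day 2 (SD, n = 3 each).

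Of the Mig repressors, MIG1 differed between the strains in its second copy. MIG1_2 had 16.5, 7.36 and 10.8 CPM in SpIB2 day 5, against 46.7, 60.1 and 42.8 CPM in SpIB1 day 5. The groups were far apart, and MIG1_2 was lower in SpIB2 with a log2 fold change of -2.13 ± 0.54 (edgeR adjusted p = 0.00408), a call that held in all 15 alternatives. On day 2 it had 8.12, 13.4 and 52.2 CPM in SpIB2 and 59.1, 73.0 and 49.97 CPM in SpIB1. Replicate 3 of SpIB2 lay within the SpIB1 range, and the difference of -1.30 ± 0.50 missed the threshold (edgeR adjusted p = 0.0586), whereas without that replicate it was -2.49 (0.00022).

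MIG1_1 passed in no contrast, with 120.9, 34.6 and 29.9 CPM in SpIB2 day 5, 29.4, 34.2 and 99.7 CPM in SpIB2 day 2, 41.5, 57.6 and 44.4 CPM in SpIB1 day 5 and 55.4, 57.3 and 35.8 CPM in SpIB1 day 2. In each SpIB2 group the library that stood apart was far above its replicates, which lay below all SpIB1 libraries of the same day. The strain difference on day 2 was 0.14 ± 0.52 (edgeR adjusted p = 0.854), and without both of these libraries it was -0.63 (0.0449). For the sum, the strain differences were -0.51 ± 0.51 on day 5 and -0.47 ± 0.51 on day 2 (edgeR adjusted p = 0.41 and 0.508), and without both libraries -1.29 (0.000426) and -1.35 (0.000658). Leaving out SpIB2 day 5 replicate 1 alone gave -1.28 on day 5 (0.0427), and leaving out SpIB2 day 2 replicate 3 alone gave -1.37 on day 2 (0.0343).

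MIG2 and MIG3, relatives of MIG1 that act on an overlapping set of genes, had 1 copy each. MIG3 had 28.1, 13.2 and 23.7 CPM in SpIB2 day 5 and 12.1, 10.1 and 9.31 CPM in SpIB2 day 2. The days did not overlap, and MIG3 was higher on day 5 by 1.03 ± 0.27 (edgeR adjusted p = 0.00716), against 0.73 (0.0519) without both libraries that stood apart. In SpIB1 the MIG3 values were 15.2, 15.4 and 15.3 CPM on day 5 and 11.9, 12.1 and 11.6 CPM on day 2, which did not overlap either, though the day effect of 0.37 ± 0.26 did not pass (edgeR adjusted p = 0.47). The 2 day effects were not shown to differ (0.66 ± 0.37, 0.182), except without SpIB2 day 5 replicate 2 (0.93, 0.035), which also brought the strain difference on day 5 past the threshold (0.76, 0.0126, against 0.49 ± 0.26 and 0.117 with all libraries).

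MIG2 had 77.7, 74.3 and 67.6 CPM in SpIB2 day 5 and 33.8, 32.7 and 146.3 CPM in SpIB2 day 2. Replicate 3 of day 2 was above all day 5 libraries and the other day 2 libraries below them. The day effect in SpIB2 was 0.04 ± 0.53 (edgeR adjusted p = 0.956), and 1.14 (0.0406) without SpIB2 day 2 replicate 3. In SpIB1 MIG2 had 37.5, 68.1 and 45.0 CPM on day 5 and 32.5, 92.1 and 35.4 CPM on day 2, with replicate 2 the highest on both days, and no contrast of MIG2 passed with all libraries.

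NRG2, a zinc-finger repressor tied to the Snf1 kinase, differed between the strains in its change over time. Summed over copies, NRG2 had 105.1, 159.3 and 126.9 CPM in SpIB2 day 5, 139.5, 113.2 and 133.7 CPM in SpIB2 day 2, 41.0, 40.2 and 30.1 CPM in SpIB1 day 5 and 99.6, 152.7 and 169.3 CPM in SpIB1 day 2. The SpIB1 day 5 libraries lay below all others, and the other groups overlapped. NRG2 fell in SpIB1 by 1.92 ± 0.26 on the log2 scale (edgeR adjusted p = 0.000983) and had a day effect of 0.02 ± 0.25 in SpIB2 (0.957). The difference of the day effects was 1.94 ± 0.35 (edgeR adjusted p = 0.00321), and on day 5 NRG2 was 3.52-fold higher in SpIB2 (1.81 ± 0.26, 9.59e-05). None of the alternatives, each library left out included, ended any of these 3 calls, and without both libraries that stood apart the difference of the day effects was 2.08 (0.00134).

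Both NRG2 copies fell in SpIB1. NRG2_1 had 22.5, 23.5 and 12.6 CPM in SpIB1 day 5 and 44.5, 85.5 and 97.5 CPM in SpIB1 day 2, a fall by 1.96 ± 0.35 (edgeR adjusted p = 0.00722) that missed the threshold without SpIB1 day 5 replicate 3 (-1.70, 0.0538). NRG2_2 had 17.5, 16.0 and 17.0 CPM in SpIB1 day 5 and 53.4, 64.2 and 69.8 CPM in SpIB1 day 2, a fall by 1.89 ± 0.23 (edgeR adjusted p = 0.000466). Neither copy overlapped between the days in SpIB1.

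In SpIB2 the 2 NRG2 copies had day effects of opposite sign. NRG2_1 had 77.3, 125.1 and 85.2 CPM on day 5 and 76.9, 51.5 and 48.3 CPM on day 2, a day effect of 0.71 ± 0.34 that did not pass (edgeR adjusted p = 0.105). NRG2_2 had 34.7, 34.0 and 44.3 CPM on day 5 and 60.3, 59.7 and 82.0 CPM on day 2, and fell by 0.84 ± 0.22 (edgeR adjusted p = 0.0083, and -0.61 with 0.0387 without both libraries that stood apart). That fall missed the threshold with only the 6 libraries compared (0.0852). The days did not overlap for either copy. On day 5 both copies were higher in SpIB2 than in SpIB1, NRG2_1 by 2.30 ± 0.36 (edgeR adjusted p = 0.000131) and NRG2_2 by 1.16 ± 0.23 (0.000654).

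NRG1, the paralog of NRG2, was higher in SpIB2. The sum had 237.6, 298.8 and 299.8 CPM in SpIB2 day 5, against 88.9, 129.3 and 119.0 CPM in SpIB1 day 5, and 87.8, 98.99 and 277.6 CPM in SpIB2 day 2, against 53.8, 76.4 and 50.4 CPM in SpIB1 day 2. The strains overlapped on neither day. NRG1 was higher in SpIB2 by 1.31 ± 0.38 on day 5 (edgeR adjusted p = 0.011) and by 1.36 ± 0.39 on day 2 (0.0197). The day 2 call ended without SpIB2 day 2 replicate 3 (0.63, 0.0807) and without SpIB1 day 2 replicate 1 (0.0852) or 3 (0.0803), and the day 5 call without SpIB1 day 5 replicate 1 (0.0662). Leaving out both libraries that stood apart gave 1.41 (0.000165) on day 5 and 0.65 (0.0305) on day 2.

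The firmer signal lay in NRG1_2. It had 160.7, 205.2 and 209.1 CPM in SpIB2 day 5, against 33.6, 50.5 and 49.4 CPM in SpIB1 day 5, and 49.5, 61.1 and 133.8 CPM in SpIB2 day 2, against 20.3, 28.0 and 21.9 CPM in SpIB1 day 2. No SpIB2 library overlapped with SpIB1 of the same day. NRG1_2 was higher in SpIB2 by 2.11 ± 0.36 on day 5 (edgeR adjusted p = 0.000247) and by 1.80 ± 0.36 on day 2 (0.00188), and neither call ended in any of its 15 alternatives. NRG1_1 passed in no contrast, with 0.52 ± 0.43 on day 5 and 0.97 ± 0.43 on day 2 between the strains. On day 2 NRG1_1 passed without SpIB2 day 2 replicate 1 (0.0449) or 2 (0.0351), and was 0.04 (0.915) without both libraries that stood apart. Its day effect in SpIB2, 0.43 ± 0.43 (edgeR adjusted p = 0.43), passed without both (1.38, 0.00148) and without SpIB2 day 2 replicate 3 alone (1.37, 0.00258).

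NRG1 was also higher on day 5 than on day 2 by point estimate in both strains, by 0.85 ± 0.38 in SpIB2 (edgeR adjusted p = 0.0822) and 0.90 ± 0.38 in SpIB1 (0.216). Neither passed in the edgeR fit of all 12 libraries. The SpIB2 effect was called by DESeq2 (0.89, adjusted p = 0.0398) and limma voom (1.06, 0.0374). For SpIB1 the days did not overlap, and the effect passed with only the 6 libraries compared (0.92, edgeR adjusted p = 0.0152). In SpIB2 the day effect was 1.58 (0.00108) without SpIB2 day 2 replicate 3. NRG1_2 passed in SpIB2 with all libraries, at 1.23 ± 0.35 (edgeR adjusted p = 0.0117), and was 1.91 (0.000127) without both libraries that stood apart. The call ended under library totals (0.84, 0.0858) and with only the 6 libraries compared (1.25, 0.0665).

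**Figure D2:**
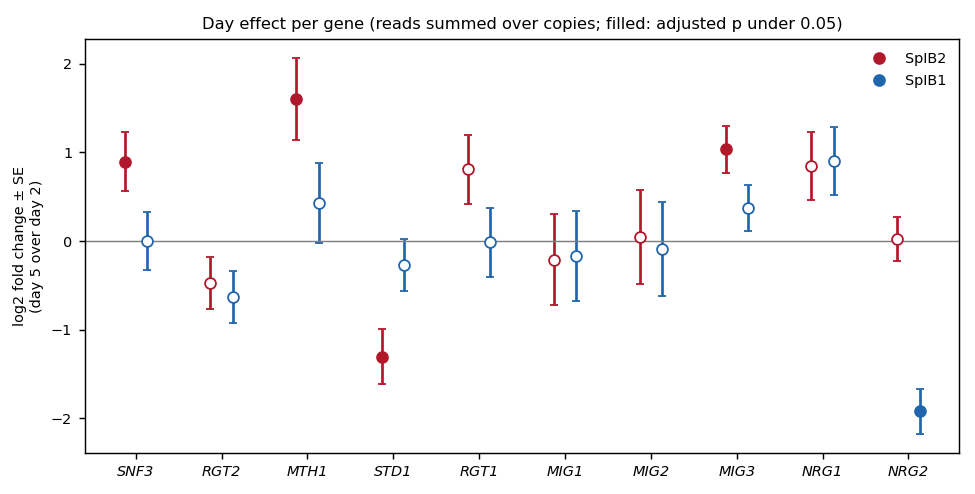
Day effect of each gene (day 5 over day 2, log2 fold change ± SE from edgeR with the reads of all copies summed, y axis) in SpIB2 (red) and SpIB1 (blue). Filled points passed an adjusted p of 0.05. SNF3, MTH1 and MIG3 are filled above 0 and STD1 below 0 in SpIB2, and NRG2 at -1.92 is the 1 filled point in SpIB1.

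**Figure D3:**
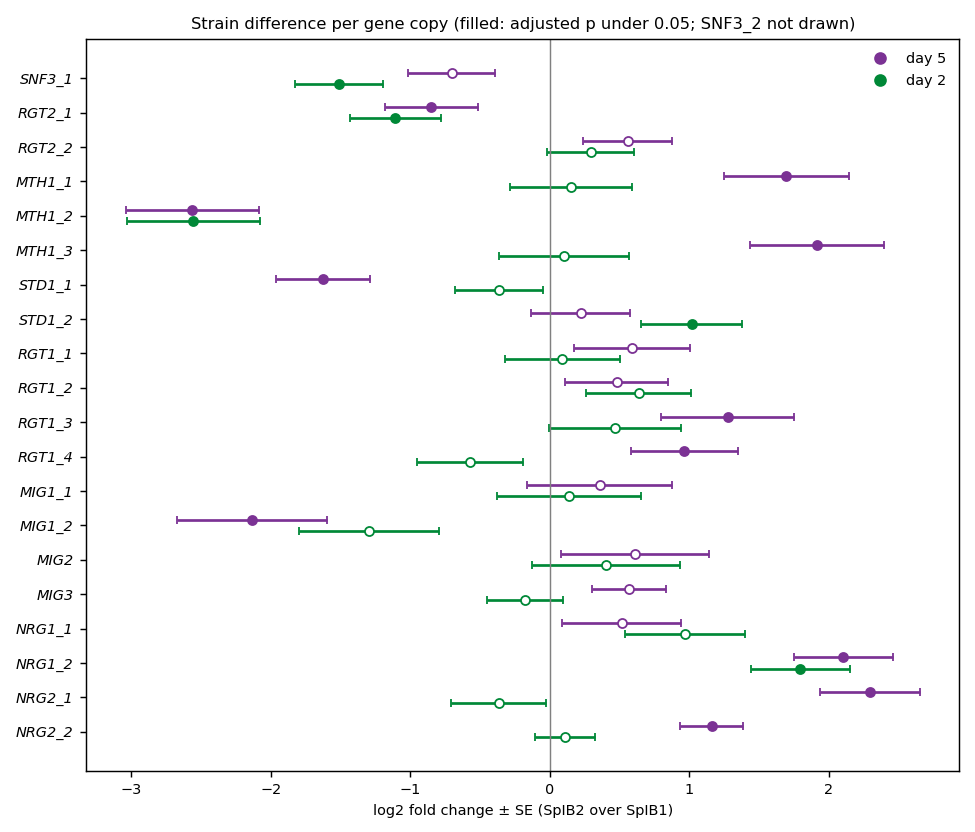
Strain difference of each gene copy (SpIB2 over SpIB1, log2 fold change ± SE from edgeR, x axis) on day 5 (purple) and day 2 (green), with filled points past an adjusted p of 0.05. SNF3_2 is left out because it had at most 2 reads in either SpIB1 group. MTH1_2 lies at -2.56 on both days, NRG1_2 at 2.11 and 1.80, and NRG2_1 at 2.30 on day 5 but -0.37 on day 2.

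The share of a gene's reads that fell on each copy does not depend on how the libraries are scaled, and it separated the strains for most genes with several copies. For MTH1 the share of MTH1_2 was 6.43 ± 0.590% in SpIB2 day 5, 11.7 ± 0.656% in SpIB2 day 2, 57.4 ± 5.10% in SpIB1 day 5 and 46.0 ± 8.23% in SpIB1 day 2 (SD, n = 3 each). The highest SpIB2 library had 12.2% and the lowest SpIB1 library 38.1%. For MIG1 the share of MIG1_1 was 81.3 ± 7.31% in SpIB2 day 5, 71.9 ± 6.36% in SpIB2 day 2, 49.0 ± 1.91% in SpIB1 day 5 and 44.7 ± 3.38% in SpIB1 day 2. The libraries that stood apart were at 88.0% and 65.7% for MIG1_1, above every SpIB1 library, although their MIG1 levels were the highest of their groups.

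For RGT2 the share of RGT2_1 was 45.0 ± 4.82% in SpIB2 day 5, 42.0 ± 10.9% in SpIB2 day 2, 67.6 ± 0.757% in SpIB1 day 5 and 66.1 ± 2.32% in SpIB1 day 2. NRG1_1 took 33.1 ± 2.93% of the NRG1 reads in SpIB2 day 5, 43.5 ± 6.72% in SpIB2 day 2, 59.8 ± 1.83% in SpIB1 day 5 and 60.0 ± 3.56% in SpIB1 day 2. In both genes no SpIB2 library reached the SpIB1 range. STD1_2 took 37.7 ± 8.98% of the STD1 reads in SpIB2 day 5, 19.6 ± 8.29% in SpIB2 day 2, 16.1 ± 4.44% in SpIB1 day 5 and 7.81 ± 2.21% in SpIB1 day 2.

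A limma test of the log2 ratio between the reads of a copy and those of the gene's other copies, added after the copy values were seen, called 10 of the 13 member ratios between the strains on day 5 and 8 of 13 on day 2. Over all 4701 ratios tested it called 64.2% and 55.4%, so unequal use of copies between these strains was common. It called 6 of 13 between the days in SpIB2 (38.8% of all ratios) and 1 of 13 in SpIB1 (2.49%). The MTH1_2 ratio differed by -4.29 ± 0.23 on day 5 and -2.67 ± 0.23 on day 2 (limma adjusted p = 1.81e-09 and 4.85e-07). NRG2_1 gained over NRG2_2 between the days in SpIB2 by 1.53 ± 0.35 (limma adjusted p = 0.00436), with 71.2 ± 6.67% of NRG2 reads in SpIB2 day 5 and 46.5 ± 9.49% in SpIB2 day 2. In SpIB1 its share was 52.8 ± 9.09% on day 5 and 53.6 ± 7.08% on day 2. The handling of reads matching several copies is not given in the sources used here, nor is the number of each copy in either genome. For the differences between the strains, unequal gene dosage and unequal expression therefore cannot be told apart.

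**Figure D4:**
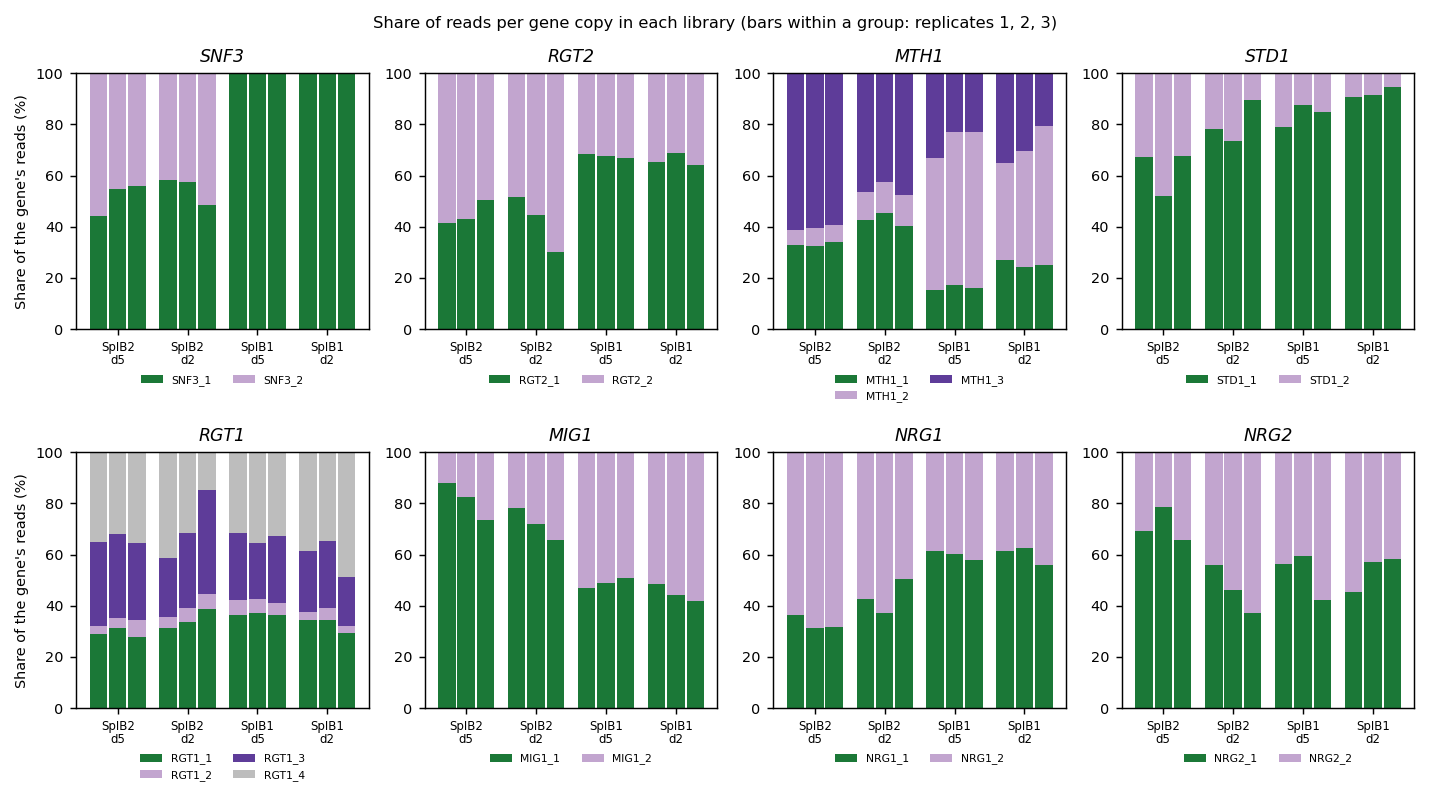
Share of each gene's reads (%, y axis) that fell on each numbered copy in every library, for the 8 genes with several copies, by strain and day (x axis). Bars within a group are replicates 1, 2 and 3. SNF3_2 is present in SpIB2 bars and at most 0.186% in SpIB1, and MTH1_2 takes up to 12.2% in SpIB2 but at least 38.1% in SpIB1.

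Other genes of the pathway were counted per copy in lists of textbook members. Of 14 copies in the signalling and corepressor list (casein kinases YCK1 and YCK2, the ubiquitin ligase genes GRR1, SKP1 and CDC53, the corepressor genes TUP1 and CYC8, and hexokinase HXK2), 3 were higher and 5 lower in SpIB2 on day 5 (29.9% and 26.5% of all copies), and 1 was higher and 1 lower on day 2 (19.3% and 16.0%). Read against those shares, these counts give no result about the list. TUP1 averaged 64.6 ± 7.66 CPM in SpIB2 day 5 and 200.9 ± 17.0 CPM in SpIB1 day 5 (SD, n = 3 each), 3.11-fold lower in SpIB2 (edgeR adjusted p = 8.62e-05). HXK2, which codes for the hexokinase that also serves glucose repression, averaged 31.3 ± 11.4 CPM in SpIB2 day 5 and 141.6 ± 21.6 CPM in SpIB1 day 5, 4.50-fold lower in SpIB2 (0.00199). SKP1_1 was higher in SpIB2 on day 5, at 509.4 ± 190.3 against 130.5 ± 17.3 CPM in SpIB1 (3.91-fold, 0.000337).

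Between the days, 3 copies of that list were higher and 4 lower on day 5 in SpIB2 (21.8% and 23.5% of all copies). In SpIB1 none was higher and 1 was lower (0.863% and 2.61% of all copies). At an unadjusted p under 0.05 edgeR had 3 higher in SpIB1, and DESeq2 and limma voom called none higher. CYC8_2 fell in both strains, to 20.7 ± 2.40 CPM in SpIB2 day 5 against 109.9 ± 30.3 CPM in SpIB2 day 2, and to 62.8 ± 9.49 CPM in SpIB1 day 5 against 170.7 ± 45.0 CPM in SpIB1 day 2. The log2 fold changes were -2.41 ± 0.30 in SpIB2 and -1.44 ± 0.29 in SpIB1 (edgeR adjusted p = 0.0001 and 0.0133). HXK2 and TUP1 were the copies of the list whose day effects differed between the strains, by -2.61 ± 0.67 and -1.22 ± 0.34 (edgeR adjusted p = 0.0149 and 0.0195). Over all copies, 11.9% were called in that direction. Leaving out both libraries that stood apart, 1 copy in place of 3 was higher on day 5 in SpIB2, and on day 2 the strain counts were 2 higher and 2 lower. For that setting the shares of all copies are not given here, and its counts give no result about the list.

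Of 14 copies of Rgt1 targets (HXT1, HXT2, HXT3, HXT4 and HXT8, hexose transporter genes), 2 were higher and 4 lower in SpIB2 on day 5 (29.9% and 26.5% of all copies), with a list median of -1.05 against 0.04 over all copies. Both higher copies were of HXT3. HXT3_2 averaged 3186 ± 2508 CPM in SpIB2 day 5 and 86.3 ± 23.5 CPM in SpIB1 day 5, with ranges of 1268 to 6024 and 68.9 to 113.0 CPM (5.21 ± 0.73, edgeR adjusted p = 5.58e-05). HXT3_3 was higher in SpIB2 on day 5 by 5.06 ± 0.66 (3.08e-05), while HXT3_1 was lower in SpIB2 on day 2 (-2.33 ± 0.41, 0.000879). HXT genes are close relatives, and their reads may be split between genes and copies. Between the days 3 copies were higher and 2 lower on day 5 in SpIB2 (21.8% and 23.5% of all copies), and 1 was higher and 1 lower in SpIB1 (0.863% and 2.61%). Leaving out the libraries that stood apart, 2 were higher and 6 lower between the strains on day 5, and 2 higher and 1 lower between the days in SpIB2. The shares of all copies called without these libraries are not given here, so those counts give no result about the list.

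Of 24 copies tested of Mig1 targets (SUC2, GAL1, GAL3, GAL4, HXK1, CAT8, FBP1, HAP4, REG2, EMI2, GUT1 and JEN1), 12 were higher and 1 lower in SpIB2 on day 5 (29.9% and 26.5% of all copies), and 13 were higher and none lower on day 5 than on day 2 in SpIB2 (none lower either at an unadjusted p under 0.05 in edgeR or by DESeq2 or limma voom), against 21.8% and 23.5% of all copies. Their medians were 0.83 and 1.001, against 0.04 and -0.10 over all copies. The 12 copies include HAP4_2 and JEN1_2, which had 0 reads in SpIB1 day 5. This list was chosen with earlier results of these data known, so its counts describe these copies and do not test the list. The counts between the strains on day 5 and between the days in SpIB2 were the same without both libraries that stood apart. The shares of all copies in that setting are not given here, so it is not known whether the distance from them was also the same. In SpIB1 none of the 24 passed in edgeR, against 0.863% of all copies higher and 2.61% lower. At an unadjusted p under 0.05, 2 were higher and none lower in SpIB1, DESeq2 called 1 higher and limma voom none. The day effect was higher in SpIB2 than in SpIB1 for 6 copies and lower for none (14.6% and 11.9% of all copies). None was lower either at an unadjusted p under 0.05 in edgeR or by DESeq2 or limma voom. CAT8_1, a copy of the gene for an activator of gluconeogenic genes, had 269.6 ± 235.7 CPM in SpIB2 day 5 and 15.4 ± 6.63 CPM in SpIB2 day 2, without overlap (4.13 ± 0.55, edgeR adjusted p = 0.000148). EMI2_2, a copy of a hexokinase relative, had 1973 ± 790.4 CPM in SpIB2 day 5 and 109.8 ± 50.2 CPM in SpIB1 day 5 (4.17 ± 0.50, 1.55e-05).

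On day 2, 4 Mig1 target copies were higher in SpIB2 and 1 lower (19.3% and 16.0% of all copies). Without both libraries that stood apart the counts were 4 and 4, for which the shares of all copies are not given here. These day 2 counts give no result about the list. HAP4_2, a copy of the gene for the activator of respiratory genes, had 42140 reads in SpIB2 day 5 and 5524 in SpIB2 day 2, but 0 reads in all 6 SpIB1 libraries. JEN1_2, a copy of the lactate transporter gene, had 1041 and 524 reads in these SpIB2 groups and 0 and 1 in SpIB1 day 5 and day 2. These copies, like SNF3_2, were read almost wholly in SpIB2.

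Of 5 copies of Nrg targets (ENA1, DOG2 and SUC2, the last also in the Mig1 list; FLO11 was not analysed here), 2 were higher in SpIB2 on day 5 and 1 on day 2, and none was lower, against 29.9% and 19.3% of all copies higher and 26.5% and 16.0% lower. With both libraries that stood apart left out, 2 were lower on day 2, a setting for which the shares of all copies are not given here. At an unadjusted p under 0.05 edgeR had 1 lower on each day, limma voom called 1 lower on day 2 and none on day 5, and DESeq2 called none. ENA1_1, for a sodium pump, averaged 221.2 ± 92.7 CPM in SpIB2 day 5, 16.3 ± 3.92 CPM in SpIB2 day 2 and 40.3 ± 6.46 CPM in SpIB1 day 5. It rose between the days in SpIB2 by 3.76 ± 0.36 (edgeR adjusted p = 1.71e-05), and this day effect exceeded that in SpIB1 by 3.23 ± 0.46 (0.000861). DOG2, for a sugar phosphatase, was higher in SpIB2 on day 2 at 160.7 ± 68.3 against 12.2 ± 4.32 CPM in SpIB1 (3.71 ± 0.44, 2.61e-05), and its day effect was lower in SpIB2 than in SpIB1 (-1.88 ± 0.57, 0.0283).

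Genes outside the pathway with the most similar pattern were found by Pearson's r of log2(CPM + 1) over the 12 libraries among 4580 genes, as a description that shares libraries and their scaling. MTH1 was most like MED2 (r = 0.961) and LEE1 (0.948). NRG1 was most like MPC3 (0.934), a mitochondrial pyruvate carrier gene, which averaged 1345 CPM in SpIB2 day 5, 436.2 in SpIB2 day 2, 186.2 in SpIB1 day 5 and 115.8 in SpIB1 day 2. NRG2 was most like SER33 (0.886), a serine synthesis gene, and AHP1 (0.884), a peroxiredoxin gene. Within SpIB1 the r of NRG2 was 0.966 with SER33 and 0.955 with AHP1, and within SpIB2 it was 0.039 and -0.839, so that the likeness followed the low SpIB1 day 5 libraries. SNF3 was most like NGR1 (0.970), RGT1 like LAM4 (0.949), MIG3 like HAL1 (0.942), STD1 like SGT1 (0.936), MIG1 like UBX6 (0.920), RGT2 like GTB1 (0.908) and MIG2 like TDA1 (0.873).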

How the data were processed

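Each of the 12 deposited tables gives the raw read counts of 1 library, unscaled and whole by their values, with 1 row per gene copy. The submitters' processing notes name STAR 2.7.3a, Trimmomatic 0.38, edgeR 3.34.0 and HTSeq 0.11.1, with no role for any of them. Build, annotation, strand setting and the counting of multiply matching reads are not stated there. 35 copies with an unreadable cell were left out, none of them a member. Counts were fitted per copy and summed per symbol in edgeR 4.0.16 under R 4.3.3 (TMM, filterByExpr, robust quasi-likelihood, 1 coefficient per strain-day group over all 12 libraries, 8 residual degrees of freedom), with Benjamini-Hochberg adjustment over all features. CPM are TMM-scaled and were scaled separately for copies and sums, so copies need not add up to the sum. Ratios of copies were tested with limma 3.58.1 with 0.5 reads added.

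Replicate numbers were taken from the labels. Alternatives were other size factors, library totals, no filter, a higher filter (mean count 50 or more), limma voom, DESeq2 1.42.0, a replicate block, only the 6 libraries compared, and libraries left out. Scripts were tested on simulated data. The text names all copies and sums of the 10 members, up to 3 called copies with the largest fold per list and comparison, and the genes of highest r among those with a mean of at least 10 CPM. Members and lists were chosen with earlier results of these data known. Counts of replicates differed beyond sampling noise (8.03 to 114 for chi-square divided by its degrees of freedom), so no library was counted as a repeat of another. Intervals and floors cover counting error only.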

Additional observations from a re-analysis of the deposited data

Results flagged for a closer look

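The day effect differed between the strains, by a test of the difference itself, in 4 results. The difference (day effect in SpIB2 minus day effect in SpIB1, log2 scale) was 1.94 ± 0.35 for the summed NRG2 (edgeR adjusted p = 0.00321), and no alternative ended that call. It was 2.66 ± 0.49 for NRG2_1 (edgeR adjusted p = 0.00309), which also held in all 20 alternatives. It was 1.05 ± 0.31 for NRG2_2 (edgeR adjusted p = 0.0258), where both strains fell, with day effects of -0.84 in SpIB2 and -1.89 in SpIB1. That call ended without SpIB2 day 2 replicate 1 (0.0539), without replicate 1 (0.0555), 2 (0.0717) or 3 (0.0577) of SpIB1 day 5, and without replicate 2 (0.0577) or 3 (0.0761) of SpIB1 day 2. Under library totals in place of TMM it was 0.36 (0.478).

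For RGT1_4 the difference was 1.54 ± 0.54 (edgeR adjusted p = 0.0488), and 13 of 20 alternatives ended the call. Without SpIB2 day 5 replicate 1 it was 0.82 (0.106), and without both libraries that stood apart 0.62 (0.153). The adjusted p was 0.0791 and 0.0912 without replicate 1 or 3 of SpIB2 day 2, 0.0934, 0.102 and 0.0579 without replicate 1, 2 or 3 of SpIB1 day 5, and 0.0988, 0.0752 and 0.0811 without replicate 1, 2 or 3 of SpIB1 day 2.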

How the results depend on the processing

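Of 1653 values of single copies under an alternative, 1530 stayed on the same side of the threshold, 75 lost and 47 gained a call and 1 reversed; of 790 values of sums these were 747, 18, 25 and 0, and of 403 copy ratios 382, 17, 4 and 0. Values that passed neither in the main analysis nor under the alternative concerned changed sign in 106, 76 and 20 cases. The reversal was MIG1_1 between the strains on day 2, at -0.63 (edgeR adjusted p = 0.0449) without both SpIB2 libraries that stood apart and 0.14 (0.854) with all.

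Library totals in place of TMM gave medians over all copies of -0.72 between the strains on day 5, -0.54 between the days in SpIB2, 0.27 in SpIB1 and -0.78 in the difference of day effects, shifts of -0.75, -0.44, 0.27 and -0.71. No called member changed sign. The copies called were then 4 higher between the strains on day 5, 1 higher and 4 lower between the days in SpIB2, and 1 higher and 1 lower in the difference; sums gave 1 higher and 3 lower between the strains on day 5, 1 higher and 2 lower between the days in SpIB2, and 1 lower in the difference. With that shift left in, it ended the day 5 strain calls of MTH1_1 (0.75, 0.0868), NRG2_2 (0.42, 0.203), RGT1_3 (0.35, 0.464), RGT1_4 (0.03, 0.939) and the summed NRG1 (0.64, 0.195), and the day 2 strain call of STD1_2 (0.98, 0.128). Between the days in SpIB2 it ended MTH1_1 (0.72, 0.114), NRG1_2 (0.84, 0.0858), RGT1_4 (0.62, 0.0947), SNF3_2 (0.51, 0.254) and the sums of MIG3 (0.60, 0.1) and SNF3 (0.36, 0.258), and in the difference NRG2_2 (0.36, 0.478) and RGT1_4 (0.64, 0.23).

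With only the 6 libraries compared, 2 copies and 1 sum were higher between the days in SpIB1, 2 copies and 1 sum higher and 1 copy lower between the days in SpIB2, and 1 sum lower between the strains on day 2. DESeq2 gave 5 copies higher, 1 copy lower and 1 sum lower in the difference of day effects. Without both libraries that stood apart, 6 copies and 3 sums were lower between the strains on day 2, 2 sums lower on day 5, and 5 copies and 2 sums higher in the difference. In each case the cause was not tested. The shares of all copies and sums called under these and the other alternatives are not given here. Counts of members under an alternative therefore give no result about the members as a group.

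Leaving out 1 library at a time, the counts of copies ranged from 1 to 2 lower between the days in SpIB1, 3 to 7 higher in SpIB2, and 1 to 6 higher and 0 to 1 lower in the difference. Counts of sums ranged from 0 to 1 in either direction between the strains on day 2, 1 to 3 higher and 1 to 2 lower on day 5, 1 to 4 higher between the days in SpIB2, and 1 to 2 higher in the difference. With a replicate block, 6 copies were higher and 4 lower between the strains on day 5. Between the days in SpIB2, 5 were higher and 2 lower. Most of the 18 pairs of same-numbered libraries were pairs across strains, and r was over 0.1 in 4 of the 18 (-0.573 to 0.481). These were 0.481 and 0.388 between the days in SpIB1, and 0.168 and 0.118 across the strains. Between the days of the same strain, r was 0.481, 0.003 and 0.388 in SpIB1 and -0.405, -0.325 and -0.035 in SpIB2. Whether the numbers pair the days within a strain is not settled by these values. At 3 libraries per group, members with few reads such as STD1_2 and RGT1_2 rest on 104 to 215 and 105 to 200 reads per group.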
